A study of Homo sapiens with 3 samples.

Results

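The promoters of the zinc finger (ZNF) genes of human chromosome 19 were examined in promoter capture Hi-C (PCHi-C) data from hESC-CMs, which are cardiomyocytes made in culture from a human embryonic stem cell line. Members were all protein-coding genes on chromosome 19 with a symbol starting with ZNF, which gave 249 genes in the GENCODE v44 annotation of GRCh37, readthrough entries such as ZNF625-ZNF20 included. Of these, 153 genes (61.4%) had an annotated transcript start on a fragment listed as a promoter, and they lay on 148 promoter fragments of 19075 in the series. PCHi-C ligates DNA ends that are close together in the nucleus, pulls out the ligation products of HindIII restriction fragments that hold promoters, and reads which fragments were joined to them. A fragment joined to a promoter is called a promoter-interacting region (PIR). The strength of a contact is given by its CHiCAGO score, which has no unit, grows as the read count rises above what the distance between the fragments would give, and was listed from 5 upwards.

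The series held 1 group of 3 biological replicates. All were made from WA09 (H9), a single embryonic stem cell line, so that differences between donors were not sampled. Every replicate went through the same kit-based cardiomyocyte differentiation followed by enrichment in medium with lactate in place of glucose, and there was no untreated or undifferentiated group. The 3 replicates held 112473, 109731 and 110740 interactions, of which 469, 465 and 433 involved a chromosome 19 ZNF promoter. These were read as unordered pairs of fragments, and the sequencing depth behind each call was not analysed here. Expression of the ZNF genes or of cardiomyocyte markers was not analysed here either, so the label of the cells was not checked against markers.

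Most ZNF genes of chromosome 19 encode transcription factors that bind DNA through a row of C2H2 zinc fingers joined by short conserved linkers. Many also carry a KRAB domain, through which they recruit TRIM28 (KAP1) and the histone methyltransferase SETDB1, so that the bound DNA becomes H3K9me3-marked heterochromatin. The family grew by tandem duplication, and its members therefore lie in clusters of neighbouring paralogues. KRAB zinc finger proteins are best known as repressors of transposable elements in early embryos and embryonic stem cells, and their own gene clusters carry H3K9me3 over the zinc finger exons in many cell types.

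Promoter windows of the genes in the strongest recurring ZNF contacts are shown to let the contact ends be read as sequence. Each window runs from 250 bases before to 50 bases after the canonical transcript start and was read 5′ to 3′ from GRCh37. Capitals mark matches to AANATGGC, the core of the site bound by YY1, or to an element made of ACTACA, any 2 bases and TCC (called the ACTACA element here), on either strand. The element was added after a window had been read. ZNF329 contacted ZNF17, ZNF283 contacted ZNF155, and ZNF20 was the partner of ZNF491, whose canonical start lies on the fragment next to its listed promoter fragment and is therefore not shown.
ZNF20 promoter, chr19:12251116-12251415, reverse strand: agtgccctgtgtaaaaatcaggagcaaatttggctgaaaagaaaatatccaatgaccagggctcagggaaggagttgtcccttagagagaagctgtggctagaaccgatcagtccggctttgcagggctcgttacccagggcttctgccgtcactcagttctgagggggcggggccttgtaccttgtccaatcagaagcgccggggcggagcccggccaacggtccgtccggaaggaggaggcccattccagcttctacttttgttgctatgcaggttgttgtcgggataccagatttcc
ZNF329 promoter, chr19:58662107-58662406, reverse strand: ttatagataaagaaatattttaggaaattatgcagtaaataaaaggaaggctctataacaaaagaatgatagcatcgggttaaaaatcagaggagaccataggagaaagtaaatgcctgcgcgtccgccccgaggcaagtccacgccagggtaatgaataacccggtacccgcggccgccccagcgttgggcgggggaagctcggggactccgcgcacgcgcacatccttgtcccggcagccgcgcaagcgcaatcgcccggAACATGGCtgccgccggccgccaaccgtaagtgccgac
ZNF17 promoter, chr19:57922279-57922578, forward strand: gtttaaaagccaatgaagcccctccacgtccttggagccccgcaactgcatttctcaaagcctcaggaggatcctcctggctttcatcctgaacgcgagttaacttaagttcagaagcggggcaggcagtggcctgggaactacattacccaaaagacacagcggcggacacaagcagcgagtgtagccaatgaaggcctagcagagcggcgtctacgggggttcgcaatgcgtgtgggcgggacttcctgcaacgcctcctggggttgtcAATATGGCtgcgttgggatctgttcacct
ZNF283 promoter, chr19:44331223-44331522, forward strand: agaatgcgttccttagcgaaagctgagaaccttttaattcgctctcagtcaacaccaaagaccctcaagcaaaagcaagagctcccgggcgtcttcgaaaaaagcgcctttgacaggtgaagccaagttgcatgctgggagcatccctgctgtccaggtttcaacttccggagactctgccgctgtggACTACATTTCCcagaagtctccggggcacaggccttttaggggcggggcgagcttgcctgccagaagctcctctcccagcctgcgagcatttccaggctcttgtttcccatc
ZNF155 promoter, chr19:44488090-44488389, forward strand: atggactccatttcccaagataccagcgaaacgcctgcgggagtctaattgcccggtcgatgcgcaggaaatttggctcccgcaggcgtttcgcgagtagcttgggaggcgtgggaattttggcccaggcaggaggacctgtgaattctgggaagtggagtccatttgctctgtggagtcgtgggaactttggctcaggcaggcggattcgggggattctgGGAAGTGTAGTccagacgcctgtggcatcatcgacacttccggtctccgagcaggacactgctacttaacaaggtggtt

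The ZNF329 and ZNF17 windows each held 1 match to AANATGGC, and the ZNF283 and ZNF155 windows each held 1 ACTACA element. The ZNF20 window held neither, with 2 GC boxes (GGGCGG) and 2 CCAAT boxes. Over all members, the ACTACA element was found in 39 of 246 windows (15.9%), against 41 of 1225 windows (3.35%) of the other protein-coding genes of chromosome 19. AANATGGC was found in 14.2% and 10.0%, CCAAT in 52.4% and 37.1%, GGGCGG in 67.9% and 66.4%, and TATAAA in 2.85% and 7.76%, in that order of sets. The median number of CpG dinucleotides per window was 20 for ZNF genes and 22 for the others. These matches describe the letters in the windows, and whether a protein binds them was not tested.

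ZNF genes were represented less often than their neighbours. A promoter fragment was listed for 61.4% of the ZNF genes and for 922 of 1231 other protein-coding genes of chromosome 19 (74.9%), with 72.6% for all protein-coding genes of the chromosome together. The remaining 96 ZNF genes had none. A pair of promoter fragments is listed in 1 order within a replicate, so that a promoter can also appear only as the second fragment. For 18 of the 96 the fragment with the transcript start was listed only there. Uncaptured fragments are listed second too, so that whether these 18 were captured cannot be told. For the rest an uncaptured promoter and a promoter with no score of 5 or more cannot be told apart. The genes fell into 21 clusters when starts within 500 kb of the next were joined, and 8 of these clusters held at least 10 genes. Among these 8, representation was lowest in the pericentromeric cluster from ZNF101 to ZNF254 (chr19:19779605-24312770), where 9 of 37 genes (24.3%) had a promoter fragment. It ranged from 47.5% (ZNF175 to ZNF331) to 87.5% (ZNF628 to ZNF835) in the other 7 large clusters.

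Repeated sequence moved with this measure. It was measured as the share of 50-base stretches at the fragment ends that occur again on chromosome 19. Each gene was given the lowest share among all fragments holding one of its starts, listed or not. This lowest share had a median of 0% and an upper quartile of 1.77% over genes with a promoter fragment. Over genes without, the median was 1.39% and the upper quartile 4.82%. A gene with starts on more fragments has more chances of a low share and of being listed, so that the 2 measures are not independent. The part of repeated sequence in the representation was not tested. In the ZNF101 to ZNF254 cluster the median was 0.776%, which was below the 3.38% of the ZNF653 to ZNF791 cluster, where 65.4% of the genes had a fragment. The ZNF promoter fragments were short, with a median length of 7.29 kb against 11.5 kb for the other chromosome 19 promoters. Of the 148 fragments, 38 also held a start of another protein-coding gene, and 14 held starts of 2 or more members, so that their contacts cannot be given to 1 gene.

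The 148 promoter fragments took part in 1036 interactions over the 3 replicates. Each had a median of 6 and a mean of 8.22 interactions, from 1 for 17 fragments to 47 for the fragment of ZNF428, and 11 fragments had 20 or more. Within a replicate the mean number of partners per fragment was 4.62, 4.53 and 4.09. The other chromosome 19 promoters had 4.40, 4.22 and 4.44, and the difference of 0.0603 ± 0.358 (SD, n = 3) changed sign between replicates (exact sign-flip permutation test, two-sided, p = 1). ZNF promoters on other chromosomes had 7.19 ± 0.156 partners and all other protein-coding promoters had 7.56 ± 0.0442, both higher than the chromosome 19 ZNF promoters in 3 of 3 replicates (exact p = 0.25 for each). With 3 replicates the exact test cannot give a p below 0.25.

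Few of the interactions recurred. Of the 1036, 90 were called in all 3 replicates (8.69%, 95% Wilson interval 7.12 to 10.6%), while 151 came from 2 replicates and 795 from 1. The share in the whole series was 24.0%. It was 13.7% (12.6 to 14.7%) for the other chromosome 19 promoters, 22.2% for ZNF promoters on other chromosomes and 14.7% for olfactory receptor promoters, another clustered family. At least 1 interaction in all 3 replicates was found for 57 of the 148 fragments (38.5%), against 51.9% of all promoter fragments. Recurrence moved with distance. Interactions in all 3 replicates spanned a median of 234 kb, and the median grew to 459 kb for interactions of 2 replicates and to 3094 kb for interactions of 1. The intervals cover counting error only.

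The reach of the ZNF promoters was greater than that of their chromosome 19 neighbours. Their median distance to a PIR was 653, 690 and 737 kb in the 3 replicates, and that of the other chromosome 19 promoters was 329, 345 and 363 kb. The groups of values did not overlap, and the difference was 348 kb ± 24.9 (SD, n = 3), the same way in 3 of 3 replicates (exact p = 0.25). The difference was smaller against sets from elsewhere in the genome. ZNF promoters on other chromosomes had a median of 607 kb ± 49.1, with a difference of 85.9 kb ± 15.3. All other protein-coding promoters had 509 kb ± 16.6, with a difference of 185 kb ± 26.0. Both differences went the same way in 3 of 3 replicates (exact p = 0.25 for each). Olfactory receptor promoters reached farther still, with a median of 2872 kb ± 27.8. On the union of the replicates, where calls made once weigh more, the ZNF median was 1084 kb and that of the other chromosome 19 promoters 815 kb. On the authors' calls from the merged replicates the ZNF median was 274 kb. There the difference from the other chromosome 19 promoters was 74.9 kb. With the main promoter fragments kept, the merged ZNF median was 276 kb and the difference 77.0 kb. ZNF promoters also had a larger share of interactions with other chromosomes, at 5.63% ± 0.565 against 4.18% ± 1.11, which was higher in 3 of 3 replicates (exact p = 0.25). At scores of at least 7 the difference was 0.467 percentage points (exact p = 0.75), and on the merged calls the ZNF share was 0.246%. The union share of 7.14% stood against 3.87% for all interactions of the series.

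**Figure D1:**
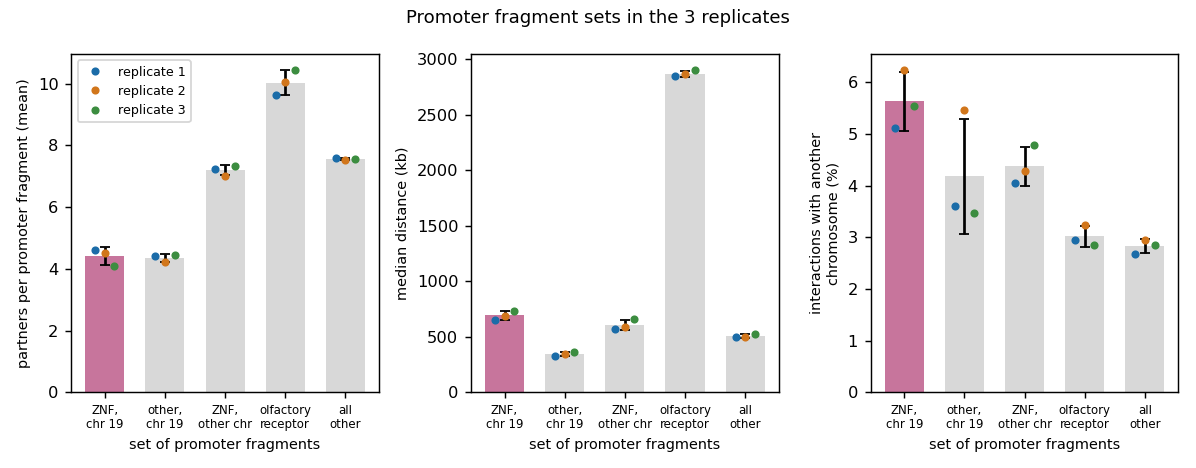
Mean partners per promoter fragment (count), median distance to the partner (kb) and share of interactions with another chromosome (%) for 5 sets of promoter fragments, with bars for the mean of 3 replicates, error bars for the SD and points for the replicates. The chromosome 19 ZNF set matched the other chromosome 19 promoters in partners (4.41 and 4.35) and lay above them in median distance (693 and 346 kb).

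The fragments that ZNF promoters contacted often lay in other ZNF genes. A ZNF gene with a start on the promoter fragment itself was not counted in this overlap. A PIR on the same chromosome overlapped a ZNF gene of chromosome 19 in 43.8%, 46.6% and 41.3% of the interactions in the 3 replicates. For the other chromosome 19 promoters it did so in 13.1%, 11.9% and 12.1%. The difference was 31.5 percentage points ± 2.83 (SD, n = 3), in the same direction in 3 of 3 replicates (exact p = 0.25). ZNF promoters lie among ZNF genes, so that this share also describes their position. By kind of partner, 180 of the 1036 interactions (17.4%) joined 2 ZNF promoter fragments and 267 (25.8%) joined a ZNF promoter to another promoter. The mean share of contacts joining 2 promoters of the same set was 21.0% over the replicates for ZNF promoters and 22.8% for the other chromosome 19 promoters, with a difference of -1.80 percentage points ± 2.85 (SD, n = 3), lower in 2 of 3 replicates (exact p = 0.5). A further 207 (20.0%) ended in the body of a ZNF gene, 167 (16.1%) in the body of another gene, 141 (13.6%) outside protein-coding genes and 74 (7.14%) on another chromosome.

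Recurrence differed between these kinds of partner. It was 17.8% for contacts between 2 ZNF promoters, 10.5% with other promoters, 4.83% with ZNF gene bodies and 1.35% with other chromosomes. It was 5.99% with bodies of other genes. For the other chromosome 19 promoters it was 8.52% with ZNF promoters and 19.2% with other promoters. Theirs was 6.29% with ZNF gene bodies, 15.3% with bodies of other genes and 0% with other chromosomes. Of the 90 interactions in all 3 replicates, 60 (66.7%) joined 2 promoter fragments, against 43.6% of the union and 9.59% of all interactions of the series. Among recurring interactions of the other chromosome 19 promoters, 34.0% ended on another promoter without a ZNF start and 3.38% on a ZNF promoter. Both ends of such a pair were captured, and the part of this in their recurrence was not tested.

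Contacts between ZNF promoters were counted against the number of pairs that could have been made, so that shares could be compared at like distance. Possible pairs were all pairs of chromosome 19 fragments that were listed as a promoter at least once. A captured promoter without a call was thus left out, and a fragment could enter through the very contact counted. Both raise the shares. How far this differs between the sets was not tested, and 61.4% of ZNF genes and 74.9% of the others were listed. Between 100 and 250 kb, 35 of 220 ZNF pairs (15.9%, 11.7 to 21.3%) were called in at least 1 replicate, against 11.6% of pairs of 2 other protein-coding promoters and 11.7% of all pairs of the chromosome at that distance. Between 250 and 500 kb the shares were 12.5% of ZNF pairs and 6.11% of other pairs (all pairs 6.60%). Between 0.5 and 1 Mb they were 9.57% and 1.66% (all pairs 2.19%), and between 1 and 2 Mb 2.70% and 0.541% (all pairs 0.701%). Under 100 kb the order was the other way, with 6.11% of ZNF pairs and 10.1% of other pairs (all pairs 8.95%).

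The replicates gave the same order. At 0.5 to 1 Mb, 6.80%, 6.30% and 3.53% of the ZNF pairs were called in replicates 1, 2 and 3, and 0.852%, 0.784% and 0.695% of the other pairs. The lowest ZNF value was above the highest of the others, and the difference was 4.76 percentage points ± 1.69 (SD, n = 3; exact p = 0.25). At 250 to 500 kb it was 3.85 ± 1.53 and at 100 to 250 kb 3.29 ± 0.659, and under 100 kb the ZNF pairs were lower by a difference of -3.41 ± 0.482, each with one sign in 3 of 3 replicates (exact p = 0.25 for each). Fragments with repeated ends were those with at least 5% repeated stretches. Without them the union difference at 100 to 250 kb turned from 4.33 to -0.114 percentage points, so that its direction depended on these fragments. They include those of ZNF875, ZNF283 and ZNF20, which had many of the recurring ZNF contacts. Repeated ends and the loss of these 3 fragments cannot be told apart here. The differences at 250 to 500 kb and at 0.5 to 1 Mb kept their direction without the fragments with repeated ends. On the merged calls the difference was -0.957 at 100 to 250 kb and -0.145 at 1 to 2 Mb, and at scores of at least 10 it was -0.571 at 0.5 to 1 Mb and -0.598 at 1 to 2 Mb. With the main promoter fragments kept in these settings, each of these 4 differences had the main direction. Mixed pairs of a ZNF and another promoter were called less often than ZNF pairs in each distance class in each replicate, with 1.87% at 0.5 to 1 Mb. Over all pairs under 1 Mb, 11.1% of ZNF pairs, 3.65% of mixed pairs and 5.54% of other pairs were called, with 5.61% of all pairs together.

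**Figure D2:**
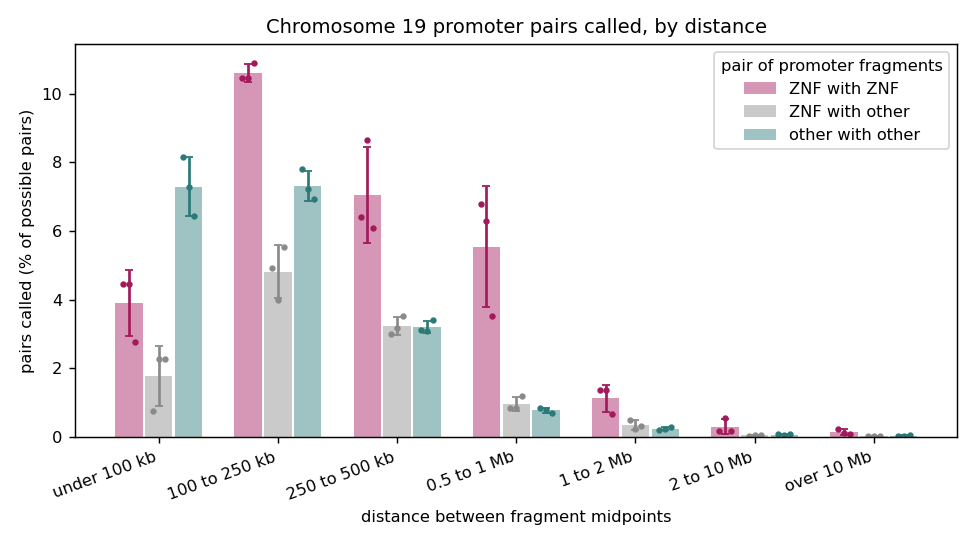
Share of possible pairs of chromosome 19 promoter fragments that were called (%), by the distance between fragment midpoints, for ZNF with ZNF, ZNF with other and other with other protein-coding promoters. Bars are means of 3 replicates, error bars the SD and points the replicates, and the ZNF pairs lie lowest relative to the other pairs under 100 kb (3.89 against 7.30%) and above them from 250 kb to 1 Mb.

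Of the 180 contacts between ZNF promoters, 32 recurred in all 3 replicates, another 44 had calls from 2 and 104 from 1. All 32 were also called on the merged replicates. For pairs under 1 Mb, 2.89% of ZNF pairs and 1.61% of other pairs were called in all 3 replicates (all pairs 1.50%). The 32 spanned 47.1 to 755 kb with a median of 206 kb, and each lay within 1 cluster. Their mean scores ran from 5.80 to 39.4 with a median of 9.02. An identical 50-base stretch was shared by the 2 fragments in 3 of the 32, in 15 of the 180 (8.33%) and in 11.3% of all possible ZNF pairs. Similar sequence without such a stretch was not searched for.

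The highest score belonged to ZNF20 and ZNF491, paralogues of the ZNF653 to ZNF791 cluster that lie 340 kb apart (chr19:12244745-12251723 and chr19:11908076-11908845). It was 41.7, 40.8 and 35.8 in the 3 replicates, with a mean of 39.4 ± 3.20 (SD, n = 3), and the lowest of these lay above each score of every other recurring ZNF contact. The fragment listed for ZNF491 is 0.770 kb long and holds an upstream transcript start. ZNF17 and ZNF329 at 743 kb scored 23.1, 19.8 and 21.4 (mean 21.4 ± 1.66). ZNF283 and ZNF155 at 158 kb scored 19.2, 17.5 and 17.8 (mean 18.2 ± 0.901). These scores varied little between replicates.

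The fourth pair by the rule of 1 pair per fragment joined ZNF875 to a fragment shared by ZNF345 and ZNF790, at 470 kb, with scores of 18.4, 16.5 and 13.3 (mean 16.1 ± 2.61). ZNF649 and the fragment shared by ZNF836 and PPP2R1A, which encodes a scaffold subunit of protein phosphatase 2A, lay 266 kb apart and scored 18.2, 8.57 and 8.86 (mean 11.9 ± 5.47). In that pair replicate 1 stood above the others. The longest recurring ZNF contact, ZNF548 with ZNF329 at 755 kb, was weaker at 5.41, 6.23 and 8.90 (mean 6.85 ± 1.82). ZNF548 and ZNF17 lie on neighbouring fragments, so that these contacts of ZNF329 are not independent.

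**Figure D3:**
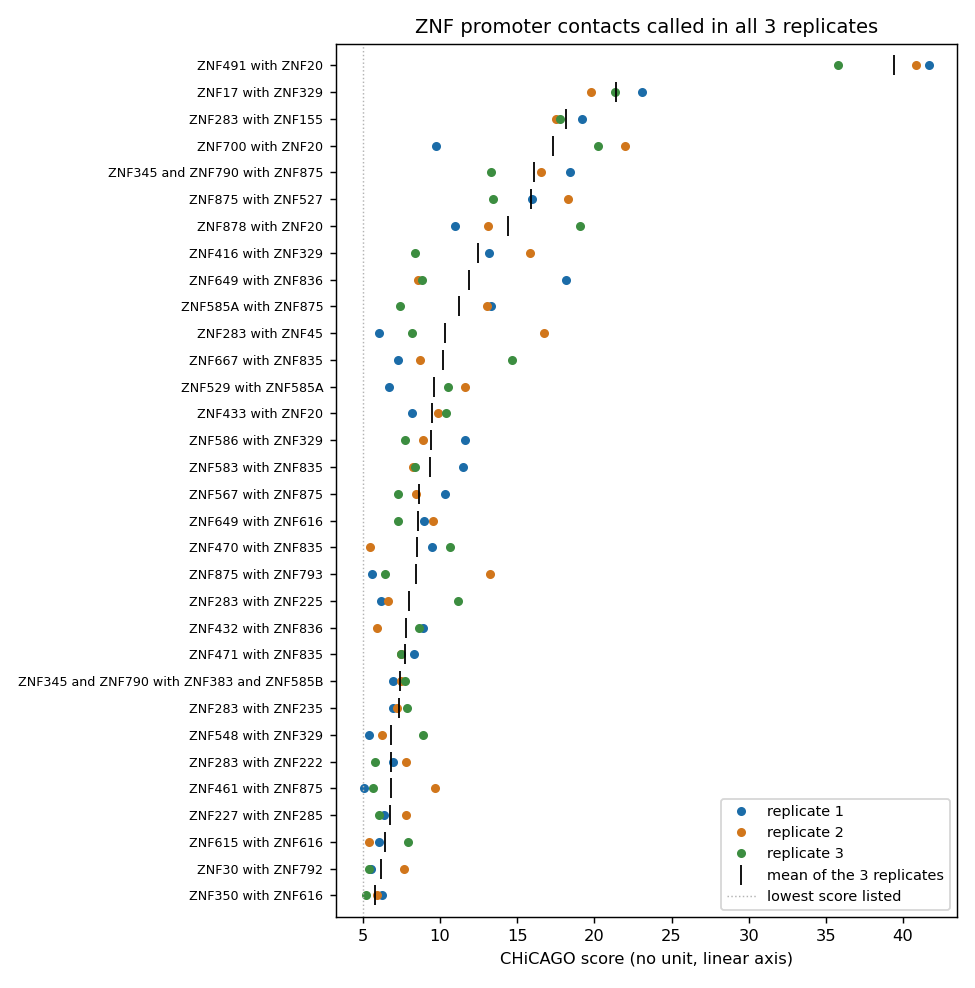
CHiCAGO score (no unit) of the 32 contacts between ZNF promoter fragments called in all 3 replicates, with points for replicates and a tick for the mean. ZNF491 with ZNF20 stands apart at 39.4, and ZNF17 with ZNF329 follows at 21.4.

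A few fragments carried most of the recurring ZNF contacts. In 6 clusters a fragment had at least 3 ZNF partners in all 3 replicates, and 26 of the 32 contacts had one of these 6 fragments as an end. They were the fragments of ZNF875 (6 partners), ZNF283 (5), ZNF329, ZNF20 and ZNF835 (4 each) and ZNF616 (3). These fragments were picked by their contacts, and their counts are a description. Without them, 67 of 995 ZNF pairs under 1 Mb (6.73%) were called, against 5.54% of other pairs and 5.61% of all pairs. In all 3 replicates 6 (0.603%) were called, against 1.61% of other pairs and 1.50% of all pairs. Leaving out fragments picked by their recurring contacts lowers both ZNF shares by the choice itself. No fragments were left out of the other pairs, so that the shares are not like for like.

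ZNF875 contacted the promoters of ZNF461, ZNF567, ZNF345 with ZNF790, ZNF585A, ZNF527 and ZNF793, from 49.2 to 653 kb away on both sides. Its listed promoter fragment, chr19:37808353-37813887, holds an upstream transcript start of the gene, and the canonical start lies on another fragment. ZNF283 contacted ZNF45, ZNF155, ZNF222, ZNF225 and ZNF235, all to one side of it, at 107 to 481 kb. Its fragment also holds a start of LYPD5. ZNF329 contacted ZNF548, ZNF17, ZNF416 and ZNF586 at 383 to 755 kb.

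ZNF835 contacted ZNF583, ZNF667, ZNF471 and ZNF470 at 102 to 266 kb, and ZNF20 contacted ZNF491, ZNF700, ZNF433 and ZNF878 at 81.0 to 340 kb. ZNF616 contacted ZNF350, ZNF615 and ZNF649 at 132 to 234 kb. Not each ZNF promoter in reach was called. ZNF875 had 13 ZNF partners at any distance in at least 1 replicate and 15 other ZNF promoter fragments within 1 Mb, ZNF329 had 16 and 27, and ZNF835 had 8 and 23. The share of repeated 50-base stretches at the fragment ends was 9.65% for ZNF875 and for ZNF283, 8.98% for ZNF20, 0.222% for ZNF835 and 0% for ZNF329 and ZNF616. Fragments with and without repeated ends were therefore among the 6.

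**Figure D4:**
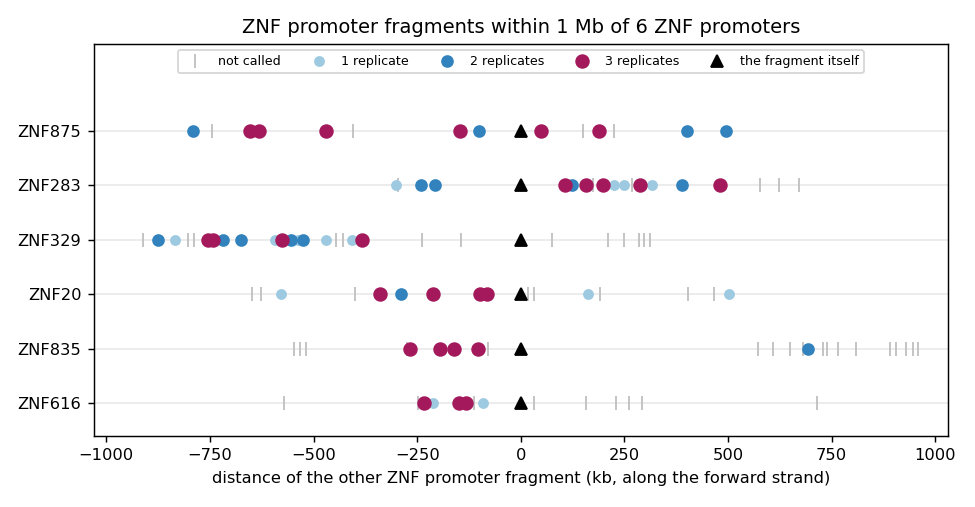
Other ZNF promoter fragments within 1 Mb of 6 ZNF promoters, placed by their distance (kb) along the forward strand and coloured by the number of replicates that called the contact, with grey ticks for none. The partners in 3 replicates lie on both sides of ZNF875 and on 1 side of the other 5, and uncalled promoters lie between some of them.

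Besides ZNF promoters, a promoter fragment at chr19:36809171-36822857 was a shared partner. It holds no protein-coding start but holds that of LINC00665, a long non-coding RNA gene. It was called in all 3 replicates with 4 members, the fragments of ZNF260, ZNF345 with ZNF790, ZNF527 and ZNF585A, and with 9 in at least 1 replicate. With ZNF527, 1044 kb away, it scored 9.01, 8.34 and 17.2. No other fragment without a ZNF start was shared by more than 2 members in all 3 replicates.

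Contacts between clusters were rare and did not recur in all 3 replicates. Within clusters 129 of the 180 ZNF contacts were found, and 51 joined different clusters. Of the 51, 0 recurred in all 3 replicates, while 10 had calls from 2 replicates and 41 from 1. Over 2 Mb there were 45, of which 5 were called in 2 replicates and 40 in 1, and 1 of the 45 was called on the merged replicates. By share of pairs, 0.840% of ZNF pairs at 2 to 10 Mb and 0.360% over 10 Mb were called in at least 1 replicate, against 0.185% and 0.109% of other pairs (all pairs 0.184% and 0.113%). The called other pairs numbered 102 and 153 at these distances, and 0 of them were called in all 3 replicates either. On the merged calls the ZNF shares were 0% and 0.0144%, and the difference at 2 to 10 Mb was -0.00543 percentage points. Most far contacts were calls of a single library.

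The cluster pair with most contacts was ZNF575 to ZNF180 (chr19:44029649-45004576) with ZNF628 to ZNF835 (chr19:55987984-57183151). There 15 of 280 possible pairs (5.36%) were called, at least 11.9 Mb apart, and 3 of them in 2 replicates. The largest score among the 3 was that of ZNF221 with ZNF583, at 10.1 and 8.58 in replicates 1 and 2, with no call in replicate 3. ZNF155 with ZNF470 was called in replicates 1 and 3 at 5.14 and 7.41, and ZNF155 with ZNF835 in replicates 2 and 3 at 5.53 and 5.90. The neighbouring clusters ZNF628 to ZNF835 and ZNF264 to ZNF446 had 7 contacts, with 5 of them in 2 replicates, at 0.694 to 2.14 Mb. Within the 8 large clusters, the share of possible pairs called was highest for ZNF414 to ZNF846 (7 of 28) and ZNF565 to ZNF573 (30 of 153, 19.6%). In all 3 replicates 0 of the 7 and 8 of the 30 were called. In the small ZNF302 to ZNF792 cluster 2 of 3 pairs were called. In ZNF101 to ZNF254, 0 of 36 possible pairs were called.

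**Figure D5:**
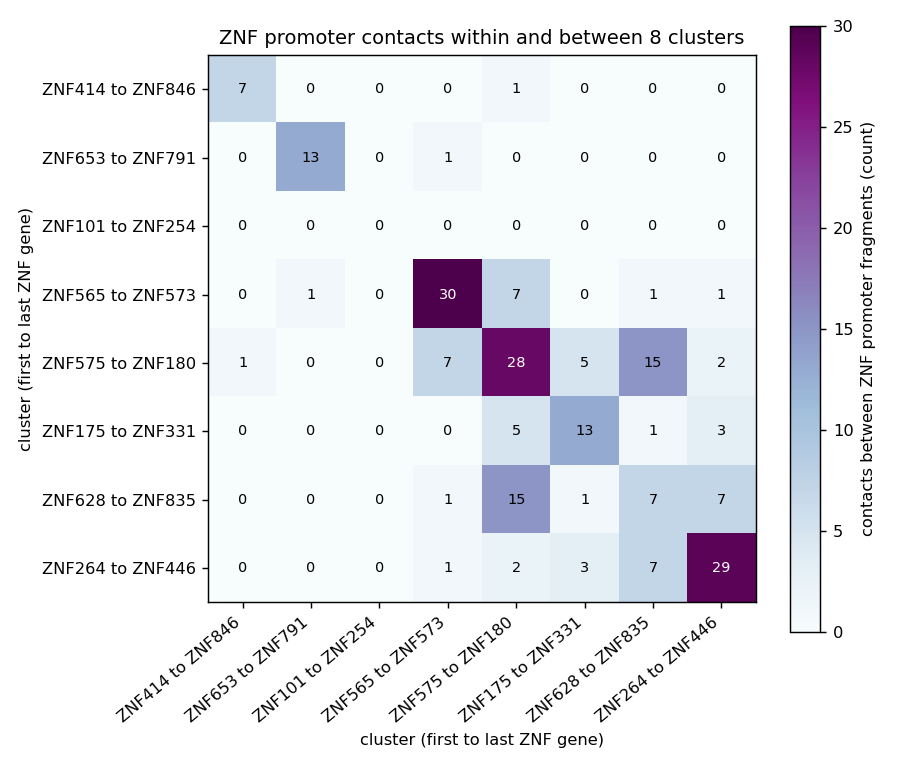
Number of contacts between ZNF promoter fragments called in at least 1 replicate, within (diagonal) and between the 8 clusters of at least 10 ZNF genes, in chromosome order. The diagonal holds most contacts, with up to 30 in ZNF565 to ZNF573, and ZNF575 to ZNF180 with ZNF628 to ZNF835 is the largest value off the diagonal at 15.

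The ZNF promoters with most recurring contacts differed in how often the partner was a ZNF promoter. ZNF875, ZNF283 and ZNF784 had 7 interactions each in all 3 replicates, and ZNF792 and ZNF835 had 6. A ZNF promoter fragment was the partner in 6 of these for ZNF875, 5 for ZNF283, 4 for ZNF835 and 1 for ZNF792. None of the 7 of ZNF784 ended on a ZNF promoter fragment. One PIR of ZNF784, chr19:55643919-55663150 at 482 kb, holds the start of TNNT1 and overlaps TNNI3, which encode slow skeletal troponin T and cardiac troponin I. Its scores were 10.2, 5.84 and 6.12 (mean 7.40 ± 2.46). The same fragment was called in all 3 replicates with ZNF628, at 334 kb, with scores of 14.9, 5.94 and 8.45 (mean 9.75 ± 4.60). Both contacts scored highest in replicate 1.

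ZNF784 also contacted BRSK1, a kinase gene, at 336 kb with scores of 7.25, 10.0 and 10.2, and LENG8 at 1175 kb with 6.76, 8.50 and 6.37. ZNF835 contacted USP29, a deubiquitinase gene beside the imprinted PEG3 domain, at 450 kb with scores of 17.7, 11.03 and 9.60 (mean 12.8 ± 4.32). That was the highest recurring score of the ZNF628 to ZNF835 cluster.

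In the clusters not named so far, the highest recurring score of ZNF414 to ZNF846 was that of ZNF561, with a PIR outside protein-coding genes at 178 kb (6.51, 7.00 and 7.26). The single recurring interaction of the ZNF101 to ZNF254 cluster joined ZNF682 to the promoter of ATP13A1, a P-type ATPase gene, at 377 kb (9.67, 7.45 and 6.20). Over more than 1 Mb, 7 recurring interactions were found. ZNF507 contacted an intron of ZNF536, chr19:31156380-31160583, at 1676 kb with scores of 9.27, 10.4 and 12.1 (mean 10.6 ± 1.42). ZNF575 contacted 3 fragments at LIPE, the hormone-sensitive lipase gene, and CXCL17, a chemokine gene, 1083 to 1103 kb away.

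The farthest joined a fragment shared by ZNF575 and ETHE1, next to the other promoter fragment of ZNF575, to the promoters of RDH13 and EPS8L1 at 11546 kb, with scores of 6.67, 7.16 and 6.35 (mean 6.73 ± 0.408). The neighbouring ZNF575 fragment was called with the same partner in replicates 1 and 3, at 7.34 and 6.40. The ends of the recurring contact shared 0 stretches of 50 bases. Of the 74 contacts with other chromosomes, 1 was called in all 3 replicates, 1 in 2 and 72 in 1. That in all 3 joined ZNF460 to chr9:8785771-8797143, in an intron of the receptor phosphatase gene PTPRD, with scores of 14.5, 30.5 and 21.3 (mean 22.1 ± 8.02). The ends shared 0 stretches of 50 bases, and no other promoter of the series was called with that chromosome 9 fragment.

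Of the members with known roles, several had no listed promoter. ZNF91 and ZNF93, repressors of SVA and LINE-1 retrotransposons, and ZNF274, which recruits SETDB1 to the zinc finger exons of ZNF genes, had no listed promoter fragment. The same held for ZNF382, ZNF536 and ZNF675. ZNF331, an imprinted gene, had 3 interactions, ZNF568 had 5, ZNF180 had 8, ZNF44 had 2 and ZNF154 had 1, and none of these was called in all 3 replicates. The fragment of ZNF568 is shared with ZNF829. Of all 148 ZNF promoter fragments, 91 had no interaction in all 3 replicates.

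ZNF350, whose product binds BRCA1, had 6 interactions, of which that with ZNF616 at 149 kb was called in all 3 replicates at 6.27, 5.90 and 5.23. ZNF649 had 9 interactions and 2 in all 3 replicates. Besides ZNF836, the second was ZNF616, at 234 kb with 8.95, 9.57 and 7.26. ZNF507 had 13 interactions, of which that with the ZNF536 intron was called in all 3.

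Of 18 genes of the KRAB repression pathway, 13 had a promoter fragment and 5 of these (38.5%) had an interaction in all 3 replicates. The share was 37.3% of ZNF genes with a fragment, 43.3% of other chromosome 19 genes and 55.9% of all protein-coding genes. The 5 were CBX3 and CBX5, which encode HP1 proteins, the DNA methyltransferase gene DNMT1, MORC3 and the HUSH complex gene PPHLN1. TRIM28 had 4 interactions and SETDB1 had 3, with 0 in all 3 replicates for both. Of 16 other zinc finger genes of chromosome 19 (ZFP, ZSCAN, ZIM, ZIK and PEG3), 12 had a fragment, and ZFP14 and ZIK1 had interactions in all 3 replicates.

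PIRs outside promoters were also searched for zinc finger coding sequence. Matches to the codons of the conserved TGEKP linker between C2H2 fingers were searched, and fragments were counted that held at least 3 of them on both strands together. Of 392 such PIRs of ZNF promoters, 23 (5.87%, 3.94 to 8.65%) did so. The share was 17 of 1429 (1.19%, 0.744 to 1.90%) for PIRs of other chromosome 19 promoters and 2.19% for all 10670 non-promoter HindIII fragments of the chromosome. Among all fragments over a ZNF gene it was 9.57% (8.42 to 10.9%), above the PIRs of ZNF promoters. Most of these PIRs were called once, and in all 3 replicates there was 1 of 26.

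That 1 PIR, chr19:12256018-12256716, lies in an exon of ZNF625, was contacted by ZNF491 from 348 kb away, and scored 7.04, 6.93 and 7.04 (mean 7.00 ± 0.0635). It held 6 matches. A stretch between neighbouring linkers is shown, on the reverse strand of the chromosome, with the linkers in capitals.
ZNF625 exon, chr19:12256158-12256255, reverse strand: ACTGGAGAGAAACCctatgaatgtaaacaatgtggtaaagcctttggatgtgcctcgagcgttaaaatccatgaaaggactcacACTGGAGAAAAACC
The scores of this PIR were among the least variable of the recurring contacts. It lies close to the ZNF20 fragment, the strongest ZNF partner of ZNF491, so that the contacts are not independent.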

How the data were processed

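The deposited promoter interactions of 3 biological replicates of hESC-CMs were taken unchanged. Another set, called by the authors on the merged replicates, served only as an alternative. The authors mapped reads with HiCUP to GRCh37 and produced each CHiCAGO score with default parameters, and the deposited score values start at 5, so that a weak contact and no contact look alike. Read counts and depth were not analysed here.

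Interactions were unordered pairs of HindIII fragments, and calls of any replicate were pooled into a union. A promoter fragment was a fragment listed first in any interaction that holds an annotated transcript start of a gene (GENCODE v44 lifted to GRCh37). Distances are between fragment midpoints. Shares carry 95% Wilson intervals and replicate means carry SDs. Sets were compared within replicates by an exact two-sided sign-flip permutation test over the 3 replicates. Repeated sequence was counted as 50-base stretches within 500 bases of each fragment end that recur on chromosome 19. Python 3.11.15, numpy 2.4.6, scipy 1.17.1, pandas 2.3.3 and matplotlib 3.10.9 were used, and the counting was tested on simulated data.

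The members and lists were chosen with earlier results of these data known. Named were the 5 fragments with most interactions in all 3 replicates, the 5 ZNF pairs with the highest mean score (1 per fragment), the longest recurring pair, the most shared PIR, the best contact with another chromosome, 14 members with known roles and the best contact of each large cluster. Other genes were named after their values were seen. Alternatives were stricter scores, each replicate left out, merged calls, other definitions of a promoter fragment and, chosen after seeing the data, canonical starts, no repeated ends and kept promoter fragments.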

Additional observations from a re-analysis of the deposited data

Results flagged for a closer look

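The calls made on the merged replicates entered the comparisons between the sets only as an alternative. They held 112 interactions of chromosome 19 ZNF promoter fragments that were called in none of the 3 replicates. The 112 were singled out because they are a signal in data outside the main measurement. The merged set held 407 interactions of these fragments in all, and the other 295 made up 28.5% of the union of the replicates. Of the 90 interactions in all 3 replicates, 88 were on the merged calls. Of the 112, 11 joined ZNF promoter fragments.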

How the results depend on the processing

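Each of 13 differences between sets was recomputed under 13 alternatives, which gave 169 values, of which 149 had the direction of the main value, 19 were reversed and 1 was 0. The differences in median distance and in the share of PIRs in a ZNF gene kept their direction in all. The number of interactions was 357 at scores of at least 7, 91 at scores of at least 10 (103 with the promoter fragments kept) and 406 on the merged calls (407 with them kept). PIRs per promoter fragment were 4.73, 2.31 and 2.21, and 5.33 and 4.88 in that order of settings, and 6.25 with the ZNF fragment listed first. The median distance was 1140 kb, 916 kb in both settings at 10 or more, and 274 and 276 kb on the merged calls, and 1027 kb for fragments with no other protein-coding gene. The share on other chromosomes was 3.92%, 4.40%, 3.88%, and 0.246% in both merged settings, 7.79% with the ZNF fragment listed first and 6.49% without repeated ends. The share with a PIR in a ZNF gene was 46.6%, 59.8%, 52.5%, 53.1% and 52.7%, and 48.9% with no other protein-coding gene and 47.3% with the ZNF fragment listed first. The share joining 2 ZNF promoters was 6.59% at 10 or more but 35.0% with the promoter fragments kept, 24.6% on the merged calls with them kept, and 13.4% with no other protein-coding gene. ZNF pairs under 1 Mb were called in 3.47% at 10 or more, 2.61% with the promoter fragments kept, 14.2% and 8.84% on the merged calls, and 10.0% without repeated ends.

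Leaving out a replicate gave 17.7 to 19.2% called in all remaining replicates, 6.49 to 6.72 PIRs per fragment, a median distance of 890 to 1018 kb, 6.16 to 6.80% on other chromosomes and 9.97 to 10.3% of ZNF pairs under 1 Mb. The difference in PIRs per fragment from the other chromosome 19 promoters then ran from -0.0566 to 0.302, and was -0.0354 without replicate 1. It was -0.104 and, with promoter fragments kept, -0.0529 at scores of at least 10, -0.0220 with the ZNF fragment listed first, -0.0956 with canonical starts and -0.267 without repeated ends. The difference in the share within the set turned to 3.23 at 7 or more, 9.08 at 10 or more with promoter fragments kept, and 0.240 and 1.24 on the merged calls.

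By distance class, ZNF minus other pairs turned at 100 to 250 kb to -0.957 on the merged calls and -0.114 without repeated ends. With scores of at least 10 it was -0.571 at 0.5 to 1 Mb, -0.598 at 1 to 2 Mb and -0.0282 at 2 to 10 Mb, and on the merged calls -0.145 at 1 to 2 Mb and -0.0108 at 2 to 10 Mb. In these settings a promoter had to be listed first within the stricter calls, which drops fragments such as that of ZNF329. With the promoter fragments kept, the difference at 10 or more had the main direction in each class (2.07 at 0.5 to 1 Mb), and on the merged calls it was 2.92 at 100 to 250 kb and was reversed only at 2 to 10 Mb, at -0.00543. The cause of the other reversals was not tested. No paired analysis was possible because the series has 1 group, so that no groups share replicate numbers. The sets of fragments were compared within replicates throughout.

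Scores below 5 and read counts were not used, so that an uncalled pair may be a weak contact. All cells came from 1 line, and 3 replicates cannot give an exact p below 0.25. Fragments hold several starts in part, and sequence outside chromosome 19 was not searched for repeats.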
